A study of Mus musculus with 20 samples.

Results

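Fatty acids are burned in mitochondria and peroxisomes by a chain of enzymes, and 36 genes of that chain and of its regulators are described here in sorted mouse beta cells. They were chosen as a list of symbols, not by their values. All 36 symbols were found among 26305 usable named genes of the deposited expression table. Of these, 30 reached the minimum for testing, a mean of at least 0.5 FPKM (fragments per kilobase of gene, scaled to library depth, so that levels can be compared between genes), as did 12455 genes in all. The other 6 (Ppara, Ppargc1a, Pdk4, Cd36, Acot1 and Acaa1b) lay under it and are given by their values.

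The study compared 4 genotypes with 5 libraries each, and values per library are given in the order of replicates 1 to 5. All mice were males aged 6 to 8 months on standard chow, and beta cells carried Cre recombinase under the rat insulin promoter (RIP-Cre) with a ROSA26-tomato reporter that marks Cre-active cells for sorting. WT is the control, IKO carries floxed Foxo1, HKO floxed Hnf4a, and DKO both, so that each factor is meant to be deleted in cells with an active insulin promoter. The labels do not say which alleles WT mice carried beside the reporter, nor that libraries came from separate animals, so p-values measure how these libraries vary, and that variation may be technical.

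In fatty acid oxidation, acyl-CoA synthetases activate the acid, the carnitine shuttle carries it into the mitochondrial matrix, and each turn of beta-oxidation shortens the chain and hands electrons to the respiratory chain. Peroxisomes shorten very long and branched chains first. PPAR alpha and PPAR delta are nuclear receptors that bind fatty acids and switch these genes on with the coactivator encoded by Ppargc1a. Foxo1 and Hnf4a are known to act on lipid metabolism in liver, and in beta cells the pathway competes with glucose for oxidation.

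In each of 8 comparisons of genotypes, 0 of 30 members passed limma's test (adjusted p under 0.05 over all 12455 genes), beside 0.00803 to 2.6% of all genes tested. How far the data bound the differences depends on whether every library counts as a separate sample. If so, the 95% interval of every one of the 30 members lay within 1.5-fold in either direction in 7 of 8 comparisons. Some replicates of a genotype lay close together, as described below. With these averaged, 28 of 30 intervals stayed within 1.5-fold in IKO against WT, 28 in HKO against WT and 29 in DKO against WT. For the interaction 23 did, and in the remaining comparisons all 30 did. The members nearest to a call by adjusted p were Eci1, with a log2 difference of −0.14 of HKO and DKO together from WT and IKO (the pooled Hnf4a difference, adjusted p = 0.0508), and Acaa2, with 0.18 there (adjusted p = 0.119). Ucp2 had the largest log2 difference of the 30 against WT, −0.35 in IKO (adjusted p = 0.678). Sets of libraries with like replicate numbers are described next. In 21 of 30 members, 70%, they held a larger share of the spread than the genotypes did, beside 65.5% of all genes. With these sets as a covariate, Eci1 and Acaa2 passed for the pooled Hnf4a difference (limma adjusted p = 0.0165 and 0.0268). Eci1 also passed in DKO against IKO (0.0287). That covariate fit counts replicates that lay close together as separate samples. With these replicates averaged as above, in a fit without a term for sets, neither gene passed for the pooled difference (0.712 and 0.758). Nor did they with all 20 libraries kept and these replicates treated as correlated, again without that term (limma adjusted p = 0.580 and 0.631).

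Library depth was 22.6 to 34.7 M reads. Foxo1 averaged 6.64 FPKM in WT and 5.97 in HKO, against 1.11 in IKO and 1.40 in DKO, the genotypes with floxed Foxo1. Hnf4a averaged 5.56 FPKM in WT and 5.39 in IKO, against 3.82 in HKO and 3.99 in DKO. The floxed gene was thus still measured in HKO and DKO, at 0.718 and 0.745 of WT in the fit. The pooled difference was −0.43 (log2, limma adjusted p = 0.00464), and neither HKO against WT (adjusted p = 0.0630) nor DKO against WT (adjusted p = 0.0928) passed alone. A value over the whole gene also counts reads outside a deleted part, so it does not show how much working Hnf4a was left, and HKO and DKO are named here by their labels. Replicates 1 and 2 of a genotype lay close to each other, as did replicates 4 and 5. Their reads differed by 1.44 to 3.08 times the sampling noise (median chi-square per gene, 8 pairs), against 6.06 to 21.5 times in the other 32 pairs of the same genotype. Replicates 1 and 2, replicate 3, and replicates 4 and 5 are therefore called library sets below. Beta cell markers dominated every library (8 of 8 listed, summed level 268149 to 387752 FPKM), and Gcg, Sst and Ppy of the other islet cells were present too. Of 17 acinar markers 16 were above 0, while Amy2a5 was listed at 0 in all 20 libraries. Their summed level was 38.1 to 268 FPKM in WT and 24.8 to 229 in IKO, but 420.0 to 1584 in HKO and 169 to 1533 in DKO. It was highest in HKO replicates 4 and 5 and DKO replicate 3. What part acinar RNA has in the values of HKO and DKO was not tested, beyond leaving those 3 libraries out.

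**Figure D1:**
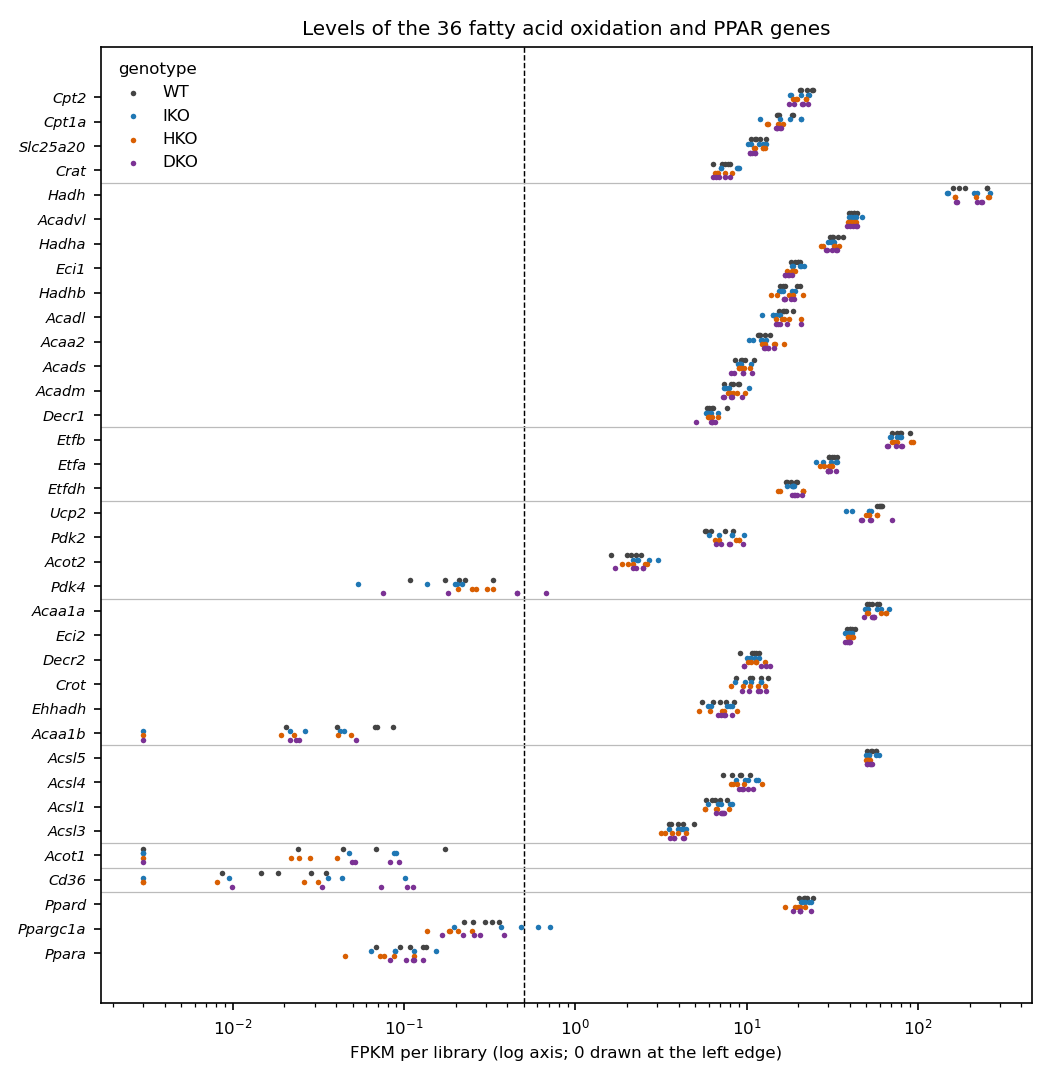
Level of each of the 36 genes in each of the 20 libraries (FPKM, log axis, 1 point per library, coloured by genotype), grouped by role. The dashed line marks 0.5 FPKM, the minimum mean for testing; Hadh lies highest at 147 to 262 FPKM, and the points of the genotypes lie on top of each other in most rows.

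Hadh had the highest level of the 36 genes. On the FPKM scale, its mean over the 20 libraries was 206, followed by Etfb at 76.8, Acaa1a at 56.0, Ucp2 at 53.8 and Acsl5 at 52.8. Hadh ranked 194 among all genes of WT, above 98.4% of those tested. The lowest tested member was Acot2 at 2.26 FPKM. The members below the minimum averaged 0.304 FPKM (Ppargc1a), 0.253 (Pdk4), 0.0990 (Ppara), 0.0465 (Acot1), 0.0347 (Cd36) and 0.0335 (Acaa1b).

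In the carnitine shuttle, Cpt1a, the rate-controlling acyltransferase of the outer mitochondrial membrane, had overlapping levels in all genotypes. Cpt1a measured 15.3, 15.4, 15.1, 18.3 and 18.7 FPKM in WT, and 20.8, 20.8, 11.9, 15.8 and 17.9 in IKO. Cpt1a gave 13.4, 13.1, 16.4, 15.2 and 15.4 FPKM in HKO, and 14.9, 14.8, 15.6, 15.1 and 15.9 in DKO. IKO spanned the whole range of the gene, from its replicate 3 at the bottom to replicates 1 and 2 at the top, and all genotypes overlapped. The mean was 16.6 ± 1.78 FPKM in WT (SD, n = 5) and 14.7 ± 1.42 in HKO (log2 fold change −0.17, 95% interval −0.41 to 0.07, limma adjusted p = 0.980).

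Cpt2, which turns acylcarnitine back into acyl-CoA inside the inner membrane, showed the library sets more than the genotypes. Cpt2 measured 24.1, 24.4, 20.5, 20.7 and 22.5 FPKM in WT, and 23.1, 22.7, 20.8, 17.99 and 18.1 in IKO. Cpt2 gave 22.3, 22.1, 19.5, 19.6 and 18.6 FPKM in HKO, and 21.4, 21.1, 22.7, 18.8 and 17.7 in DKO. In WT, IKO and HKO the 2 highest values were those of replicates 1 and 2. All genotypes overlapped, and the difference of IKO from WT had the interval −0.31 to 0.05 on the log2 scale.

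Slc25a20, the carrier that swaps acylcarnitine for carnitine across the inner membrane, had the smallest p of the members in DKO against HKO. Slc25a20 measured 11.2, 11.3, 10.5, 11.9 and 13.04 FPKM in WT, and 10.5, 12.96, 10.2, 11.8 and 12.4 in IKO. Slc25a20 gave 11.2, 11.1, 12.4, 12.7 and 12.4 FPKM in HKO, and 10.5, 10.8, 11.2, 10.5 and 11.2 in DKO. In DKO, 3 of 5 libraries lay below every HKO library, and the other 2 lay within the HKO range. DKO averaged 10.8 ± 0.366 FPKM against 11.97 ± 0.763 in HKO (log2 fold change −0.14, 95% interval −0.28 to 0.01, limma adjusted p = 0.990; exact permutation p = 0.0476). This exact test and those below are two-sided and unadjusted, were made on members picked for a small limma p, treat all 5 libraries of a genotype as separate, and cannot give less than 0.00794. Crat, which forms acetylcarnitine, averaged between 7.07 FPKM (DKO) and 8.15 (IKO). All 4 shuttle genes had a pooled Hnf4a difference (mean of HKO and DKO less mean of WT and IKO) below 0, though Slc25a20 only by −0.02. Their median was −0.09 log2, beside 0.00 over all genes tested, of which 51% were above 0. Of the 4 shuttle genes 0 passed. Their summed level was 52.5 to 62.2 FPKM in WT and 51.9 to 63.6 in IKO, and 52.9 to 56.6 in HKO and 50.8 to 56.2 in DKO, so the ranges overlapped.

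The first step of mitochondrial beta-oxidation is taken by acyl-CoA dehydrogenases that differ in the chain length they accept. Acadvl accepts very long chains. Acadvl measured 40.5, 42.2, 39.8, 44.3 and 42.5 FPKM in WT, and 39.3, 40.5, 42.4, 47.3 and 43.4 in IKO. Acadvl gave 40.5, 38.96, 43.6, 42.5 and 40.3 FPKM in HKO, and 40.1, 38.5, 41.5, 43.4 and 43.9 in DKO. Its 20 libraries spanned 38.5 to 47.3 FPKM, with IKO replicate 4 at the top, and the genotypes overlapped throughout. The interval of its difference was −0.14 to 0.09 log2 in HKO against WT and −0.13 to 0.10 in DKO against WT.

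Acadl, for long chains, had lower values in IKO. Acadl measured 16.5, 16.3, 15.5, 16.9 and 18.6 FPKM in WT, and 14.2, 14.3, 15.7, 12.4 and 14.9 in IKO. Acadl gave 16.2, 16.5, 20.8, 14.8 and 17.7 FPKM in HKO, and 15.6, 17.3, 20.8, 15.3 and 14.8 in DKO. IKO held the 3 lowest of the 20 values, but IKO replicate 3 lay above WT replicate 3, so the genotypes overlapped. IKO averaged 14.3 ± 1.24 FPKM against 16.8 ± 1.136 in WT (log2 fold change −0.22, 95% interval −0.42 to −0.03, limma adjusted p = 0.999968; exact permutation p = 0.0159). Within library sets the difference of IKO from WT was −0.20 (replicates 1 and 2), 0.02 (replicate 3) and −0.37 (replicates 4 and 5) on the log2 scale. DKO against IKO gave a log2 fold change of 0.22, 95% interval 0.02 to 0.41, limma adjusted p = 0.412 (exact permutation p = 0.0556), and 0.14 without DKO replicate 3. The pooled Foxo1 difference (mean of IKO and DKO less mean of WT and HKO) was −0.13 (adjusted p = 0.999772), and within replicate 3 it was 0.01.

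Acadm, for medium chains, overlapped between all genotypes. Acadm measured 8.98, 8.91, 8.29, 7.37 and 8.08 FPKM in WT, and 7.46, 7.39, 10.4, 7.73 and 7.86 in IKO. Acadm gave 8.35, 9.77, 8.80, 8.03 and 7.80 FPKM in HKO, and 8.24, 8.09, 9.35, 7.34 and 7.27 in DKO. IKO replicate 3 was the highest of all 20 libraries and DKO replicates 5 and 4 the lowest. WT averaged 8.33 ± 0.660 FPKM and DKO 8.06 ± 0.843 (log2 fold change −0.05, 95% interval −0.24 to 0.14, limma adjusted p = 0.960). Acads, for short chains, spanned 8.11 to 10.996 FPKM over all libraries.

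Hadha and Hadhb encode the subunits of the trifunctional protein, which carries out the later steps for long chains. Hadha measured 33.96, 36.6, 30.7, 31.5 and 31.7 FPKM in WT, and 32.2, 31.99, 31.4, 29.8 and 31.2 in IKO. Hadha gave 34.5, 32.4, 32.6, 27.3 and 27.8 FPKM in HKO, and 33.7, 33.01, 31.6, 29.4 and 29.1 in DKO. HKO replicates 4 and 5 were lowest and WT replicate 2 highest, and all genotypes overlapped. Across genotypes, the libraries of replicates 1 and 2 lay at 32.0 to 36.6 FPKM, all above those of replicates 4 and 5 at 27.3 to 31.7. Hadhb showed the same order, with 17.6 to 20.6 FPKM in replicates 1 and 2 and 13.96 to 16.7 in replicates 4 and 5. Hadha in HKO against WT had a log2 fold change of −0.09, 95% interval −0.23 to 0.05, limma adjusted p = 0.999914.

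These subunit genes lie head to head on chromosome 5, Hadha on the minus strand (30119423 to 30154980) and Hadhb on the plus strand (30155253 to 30184593), with 272 bases between them. The 250 bases of that space next to Hadhb are printed because the genes start on either side of it and had the same order of library sets. They are taken from RefSeq on GRCm38.p6, chr5:30155003-30155252, plus strand, and capitals mark GGGCGG, the core of a GC box.
Hadha-Hadhb space: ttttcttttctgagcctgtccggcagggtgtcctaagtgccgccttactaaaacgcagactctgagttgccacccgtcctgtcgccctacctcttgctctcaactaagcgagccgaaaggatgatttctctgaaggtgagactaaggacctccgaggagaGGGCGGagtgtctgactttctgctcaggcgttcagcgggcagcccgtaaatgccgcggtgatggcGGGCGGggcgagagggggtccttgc
GGGCGG was found at 2 places there on either strand, and 32.7% of 32851 mouse promoter windows of like length hold it. CCAAT was not found in this window, against 33.8% of promoter windows that hold it. These are matches of letters only.

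Hadh, the short-chain hydroxyacyl-CoA dehydrogenase, is known in beta cells as an inhibitor of glutamate dehydrogenase, and its loss causes excess insulin secretion. Hadh measured 254, 254, 188, 161 and 173 FPKM in WT, and 222, 213, 262, 147 and 150.2 in IKO. Hadh gave 257, 258, 219.5, 164 and 164 FPKM in HKO, and 235, 233, 222, 168 and 168 in DKO. In every genotype replicates 4 and 5 were the lowest, at 147 to 173 FPKM over the genotypes, against 213 to 258 in replicates 1 and 2. Replicate 3 ranged from 188 in WT to 262 in IKO. The genotype means were 206 ± 45.2 (WT), 199 ± 49.5 (IKO), 213 ± 47.1 (HKO) and 205 ± 34.4 FPKM (DKO). Library sets held 85.2% of the spread of Hadh on the log2 scale and genotypes 1.67%. The difference of DKO from WT was 0.01 with the wide interval −0.38 to 0.39. In GRCm38, Hadh lies on chromosome 3 from 131233419 to 131272101.

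Acaa2, the mitochondrial thiolase that cuts off acetyl-CoA in the last step, had higher means in HKO and DKO, and did not pass with the 5 libraries of a genotype as separate samples. Acaa2 measured 11.8, 12.8, 11.7, 11.9 and 13.7 FPKM in WT, and 12.3, 12.2, 12.97, 10.3 and 10.9 in IKO. Acaa2 gave 14.4, 14.7, 16.6, 12.3 and 12.8 FPKM in HKO, and 13.2, 13.3, 14.4, 12.7 and 12.6 in DKO. HKO replicates 1 to 3 lay above every WT and IKO library, whereas HKO replicates 4 and 5 lay within the WT range, as did 4 of 5 DKO libraries. HKO averaged 14.1 ± 1.69 FPKM and WT 12.4 ± 0.859 (log2 fold change 0.18, 95% interval 0.02 to 0.34, limma adjusted p = 0.580; exact permutation p = 0.0635). Within library sets this difference was 0.23 (replicates 1 and 2), 0.49 (replicate 3) and −0.03 (replicates 4 and 5).
The pooled Hnf4a difference of Acaa2 was 0.18 (interval 0.06 to 0.29, limma adjusted p = 0.119), with 0.17, 0.32 and 0.11 in the 3 library sets. The acinar markers were also higher in HKO and DKO. Without the 3 libraries in which those markers were highest, the pooled difference was 0.21 and its adjusted p 0.0333, and that of HKO from WT was 0.29 (adjusted p = 0.113). Those libraries include HKO replicates 4 and 5, the lowest of HKO for Acaa2, while WT replicates 4 and 5 stayed in. Leaving them out therefore also changed the balance of library sets. The HKO libraries that stayed in still had summed acinar levels of at least 420.0 FPKM, against at most 268 in WT. This fit thus cannot set acinar RNA aside. The pooled difference also passed with the replicate number as a block (limma adjusted p = 0.0427) and with library sets as a covariate (0.0268). Both of these fits count close pairs as separate samples. With close pairs averaged into 1 sample, in a fit without a term for library sets, the adjusted p was 0.758. With close pairs treated as correlated, also without that term, it was 0.631.

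Eci1, an enoyl-CoA isomerase that lets unsaturated chains enter the cycle, came closest to a call. Eci1 measured 18.2, 19.8, 19.1, 20.003 and 20.6 FPKM in WT, and 18.5, 18.5, 21.5, 20.7 and 20.6 in IKO. Eci1 gave 18.6, 18.5, 17.3, 19.05 and 18.5 FPKM in HKO, and 16.7, 17.5, 18.3, 16.8 and 17.7 in DKO. All 5 DKO libraries lay below all 5 IKO libraries, and no other member was without overlap there (1 of 30, beside 2.77% of all genes). DKO overlapped with WT, since WT replicate 1 lay below DKO replicate 3. In HKO, 4 of 5 libraries lay between 18.5 and 19.05 FPKM, within the range of WT and IKO. Mean levels were 19.5 ± 0.925 (WT), 19.95 ± 1.37 (IKO), 18.4 ± 0.660 (HKO) and 17.4 ± 0.657 FPKM (DKO). The difference of DKO from IKO was −0.19 log2 (interval −0.30 to −0.08, limma adjusted p = 0.0955, exact permutation p = 0.00794), and within library sets −0.11, −0.22 and −0.25.
Against WT, DKO differed in Eci1 by −0.16 (limma adjusted p = 0.210, exact permutation p = 0.0159). The pooled Hnf4a difference was −0.14 (interval −0.21 to −0.06, limma adjusted p = 0.0508). It was −0.07 within replicates 1 and 2, −0.18 within replicate 3 and −0.18 within replicates 4 and 5. With library sets as a covariate, and close pairs counted as separate samples, the limma adjusted p was 0.0165. After scaling to equal medians, without that covariate, it was 0.258, and after quantile normalization 0.137. With close pairs averaged into 1 sample it was 0.712, and with close pairs treated as correlated 0.580. Neither the averaged nor the correlated fit held a term for library sets. Over all genes 46 and 94 passed in them, against 324 in the main fit. Without the 3 libraries highest in acinar markers, the difference was −0.16 (adjusted p = 0.0549). Leaving out WT replicate 1, IKO replicate 1, IKO replicate 2 or DKO replicate 3 alone gave adjusted p-values of 0.0331 to 0.0474. Eci1 lies on chromosome 17 from 24426683 to 24439316 in GRCm38. Decr1, the reductase for polyunsaturated chains, averaged 6.42 FPKM in WT and 6.07 in DKO.

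Over the 10 mitochondrial beta-oxidation enzymes, 0 passed in any comparison. Their median pooled Hnf4a difference was −0.01 log2, beside 0.00 over all genes. Without Hadh, their summed level was 157 to 171 FPKM (WT), 157 to 165 (IKO), 153 to 177 (HKO) and 157 to 168 (DKO), which are nearly the same ranges.

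**Figure D2:**
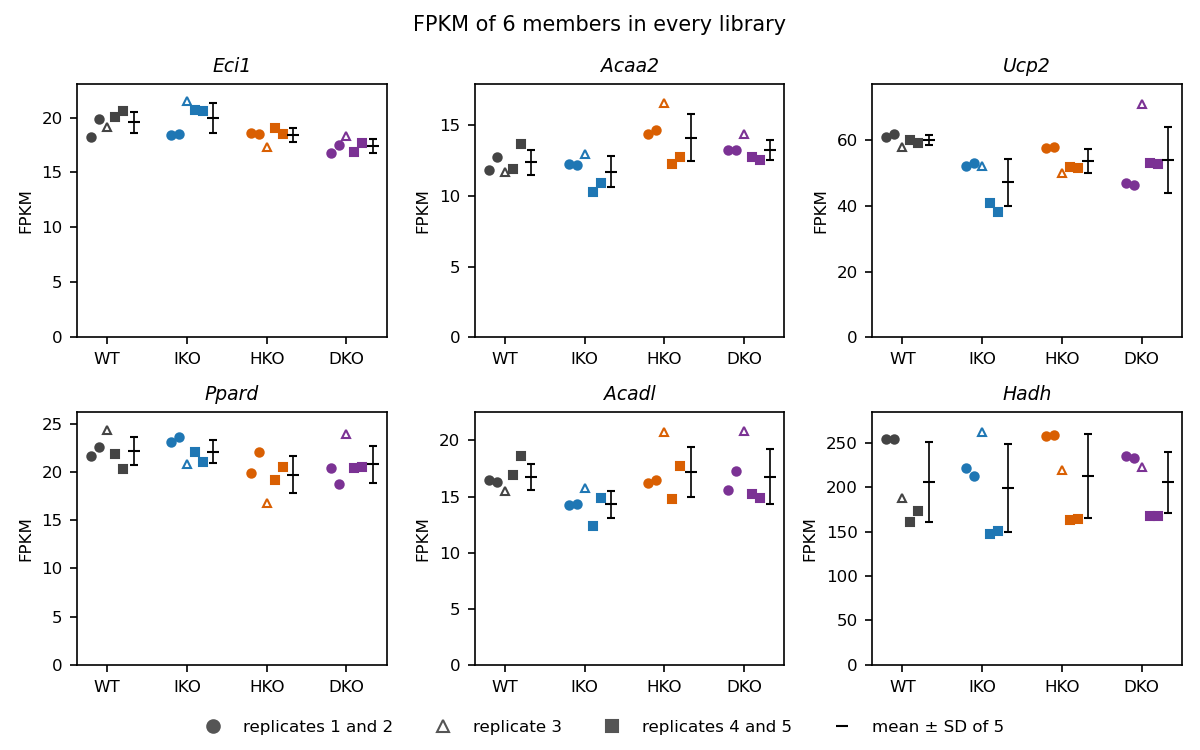
FPKM of 6 members in every library, by genotype, with marker shapes for the library sets and bars for mean ± SD of 5 libraries (axes start at 0). Eci1 sits lowest in DKO (16.7 to 18.3 FPKM), every Ucp2 point of IKO lies below those of WT, and Hadh splits by library set within each genotype.

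The electrons taken in the first step pass through the electron transfer flavoprotein (Etfa and Etfb) and its ubiquinone oxidoreductase (Etfdh). Etfb measured 70.1, 75.3, 78.6, 89.96 and 79.6 FPKM in WT, and 69.2, 68.7, 75.7, 79.5 and 78.9 in IKO. Etfb gave 75.6, 72.7, 70.6, 91.3 and 93.3 FPKM in HKO, and 65.7, 66.6, 73.996, 80.96 and 79.5 in DKO. Etfb was highest in HKO replicates 4 and 5, and in each genotype replicates 1 and 2 lay below replicates 4 and 5. Across genotypes these sets did not overlap, at 65.7 to 75.6 and 78.9 to 93.3 FPKM. The difference of DKO from HKO was −0.13 (limma adjusted p = 0.990, exact permutation p = 0.238), and the genotypes overlapped. Without the 3 libraries highest in acinar markers, which include HKO replicates 4 and 5, it was −0.0021. Etfa averaged 30.6 FPKM over all libraries, and its means ran from 29.6 in HKO to 31.6 in WT. Etfdh means ran from 18.3 FPKM in WT to 19.4 in DKO.

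Ucp2, an inner membrane carrier known in mice to lower insulin secretion, had the largest difference of any tested member against WT. Ucp2 measured 60.9, 62.03, 58.01, 59.96 and 59.3 FPKM in WT, and 52.1, 53.2, 52.1, 41.1 and 38.03 in IKO. Ucp2 gave 57.5, 57.9, 50.01, 51.9 and 51.5 FPKM in HKO, and 46.9, 46.3, 71.02, 53.1 and 52.8 in DKO. Every IKO and every HKO library lay below every WT library. DKO spread most widely, with 4 libraries under all WT libraries and replicate 3 above all of them. IKO averaged 47.3 ± 7.17 FPKM against 60.05 ± 1.53 in WT (log2 fold change −0.35, 95% interval −0.57 to −0.14, limma adjusted p = 0.678; exact permutation p = 0.00794). It was the only member without overlap in IKO against WT and also in HKO against WT (1 of 30 each), beside 0.763% and 2.48% of all genes tested. No member was without overlap in DKO against WT or in DKO against HKO (0 of 30 each, beside 3.37% and 0.988% of all genes).
Within library sets the difference of IKO from WT was −0.22 (replicates 1 and 2), −0.15 (replicate 3) and −0.59 (replicates 4 and 5). HKO differed from WT by −0.16 (limma adjusted p = 0.959). The pooled Foxo1 difference was −0.18 (limma adjusted p = 0.999772), with 0.17 within replicate 3. The interaction (the difference of DKO from HKO, less that of IKO from WT) was 0.35 (limma adjusted p = 0.989), with −0.08, 0.66 and 0.62 in the library sets. Without the 3 libraries highest in acinar markers, which include DKO replicate 3, it was 0.21. Ucp2 lies on chromosome 7 from 100493337 to 100499629 in GRCm38.

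Pdk2 and Pdk4 phosphorylate and so inhibit pyruvate dehydrogenase, which favours fat over glucose as fuel. Pdk2 measured 7.46, 8.31, 6.17, 5.73 and 5.78 FPKM in WT, and 8.23, 8.25, 9.60, 6.86 and 6.01 in IKO. Pdk2 gave 8.99, 9.02, 8.65, 6.51 and 6.91 FPKM in HKO, and 7.87, 7.99, 9.57, 7.12 and 6.59 in DKO. WT held 3 of the 4 lowest Pdk2 values, and all genotypes overlapped. The mean was 6.69 ± 1.144 FPKM in WT and 7.83 ± 1.13 in DKO (log2 fold change 0.22, 95% interval −0.06 to 0.49, limma adjusted p = 0.784; exact permutation p = 0.135). Pdk2 also separated the library sets, with 7.46 to 9.02 FPKM in replicates 1 and 2 and 5.73 to 7.12 in replicates 4 and 5.
Pdk4 measured 0.208, 0.332, 0.108, 0.225 and 0.173 FPKM in WT, and 0.218, 0.197, 0.203, 0.136 and 0.0538 in IKO. Pdk4 gave 0.303, 0.208, 0.249, 0.263 and 0.331 FPKM in HKO, and 0.458, 0.457, 0.677, 0.1803 and 0.0751 in DKO. These values rest on 5 to 80 reads per library. DKO held the 3 highest Pdk4 values, in replicates 1 to 3, and also the second lowest, in replicate 5. Fitted without the minimum, over 20470 genes, Pdk4 had a pooled Hnf4a difference of 0.24 on the log2(FPKM + 0.5) scale, which understates changes at such levels (limma adjusted p = 0.387).

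Acot2, a mitochondrial thioesterase that releases free fatty acid from acyl-CoA, was the second member of the interaction by its p. Acot2 measured 2.41, 2.25, 2.12, 1.999 and 1.61 FPKM in WT, and 3.02, 2.67, 2.30, 2.31 and 2.16 in IKO. Acot2 gave 1.86, 2.16, 2.03, 2.56 and 2.61 FPKM in HKO, and 2.17, 2.46, 2.25, 1.70 and 2.48 in DKO. IKO replicates 1 and 2 were the highest and WT replicate 5 the lowest, and the genotypes overlapped. The interaction was −0.23 (limma adjusted p = 0.989), and −0.12 without the 3 libraries highest in acinar markers. Acot2 shares 26.5% of its 42-base words with the cytosolic thioesterase Acot1, so reads may have been split between them. Acot1 itself had 0 to 8 reads per library.

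In peroxisomes, Ehhadh carries out the hydratase and dehydrogenase steps. Ehhadh measured 8.44, 7.61, 5.51, 6.36 and 6.98 FPKM in WT, and 7.98, 8.24, 7.64, 5.93 and 6.21 in IKO. Ehhadh gave 7.14, 7.38, 8.77, 5.26 and 6.13 FPKM in HKO, and 7.50, 7.41, 8.25, 6.77 and 7.07 in DKO. HKO held both the lowest value, in replicate 4, and the highest, in replicate 3, and the genotypes overlapped. DKO averaged 7.40 ± 0.554 FPKM and WT 6.98 ± 1.13 (log2 fold change 0.09, 95% interval −0.17 to 0.35, limma adjusted p = 0.952). Acaa1a, the main peroxisomal thiolase, averaged 56.0 FPKM over all libraries. Its near copy Acaa1b stood at 0.0335 FPKM with 0 to 4 reads per library, and Acaa1a shares 29.7% of its 42-base words with it. Crot, which makes octanoylcarnitine for export to mitochondria, had means from 10.5 FPKM in HKO to 11.3 in DKO. Decr2, the peroxisomal dienoyl-CoA reductase, had means from 10.8 in WT to 11.6 in DKO. Eci2, an isomerase found in both organelles, had means from 39.1 in DKO to 40.5 in WT.
Of the 5 tested peroxisomal members 0 passed in any comparison. Their pooled Hnf4a differences lay between −0.01 and 0.07 (log2, median 0.00), and their summed level was 118 to 131 FPKM (WT), 118 to 132 (IKO), 119 to 138 (HKO) and 121 to 126 (DKO). The 20 tested mitochondrial members had a median pooled Hnf4a difference of −0.02. The mitochondrial and peroxisomal steps were not tested against each other.

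Acyl-CoA synthetases activate fatty acids for oxidation or for lipid synthesis. Acsl4 prefers arachidonic acid. Acsl4 measured 10.4, 9.28, 9.18, 7.23 and 8.21 FPKM in WT, and 11.7, 11.3, 8.61, 9.73 and 10.2 in IKO. Acsl4 gave 9.67, 8.79, 12.2, 8.14 and 8.27 FPKM in HKO, and 10.95, 10.1, 9.57, 8.97 and 9.44 in DKO. HKO replicate 3 was the highest and WT replicate 4 the lowest, and all genotypes overlapped. IKO averaged 10.3 ± 1.23 FPKM against 8.86 ± 1.20 in WT (log2 fold change 0.21, 95% interval −0.02 to 0.44, limma adjusted p = 0.999968). Acsl5, a mitochondrial and ER synthetase, was the most abundant, with means from 50.97 FPKM in HKO to 54.3 in WT. Acsl1 ran from 6.51 in HKO to 7.22 in IKO, and Acsl3, a lipid droplet and ER synthetase, from 3.70 in HKO to 4.06 in IKO. All 4 synthetases had a pooled Foxo1 difference above 0, as did 62.7% of all genes. Their median was 0.08 beside 0.02 over all genes, and 0 of 4 passed.
Cd36, the fatty acid uptake receptor, was nearly absent, with 0 to 14 reads per library. Endothelial and immune cells are known to express it. The summed level of 8 endothelial markers was at most 14.05 FPKM (in DKO), and that of 7 immune markers was 23.8 to 48.2 FPKM. Among the immune markers, Cd68, C1qa and Cd74 reached 17.7, 18.4 and 15.4 FPKM. The highest values of Lyz2, C1qb, Ptprc and Adgre1 were only 2.05, 1.24, 0.341 and 0.144 FPKM. Since RNA was pooled from many cells, fewer cells of a type and less RNA per cell cannot be told apart.

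Of the regulators, Ppard was abundant and Ppara barely detected. Ppard measured 21.7, 22.6, 24.3, 21.8 and 20.3 FPKM in WT, and 23.1, 23.6, 20.8, 22.003 and 21.01 in IKO. Ppard gave 19.9, 21.998, 16.8, 19.1 and 20.5 FPKM in HKO, and 20.4, 18.7, 23.9, 20.4 and 20.5 in DKO. HKO replicate 3 was the lowest and WT replicate 3 the highest, and HKO overlapped with WT in 2 libraries. HKO averaged 19.7 ± 1.92 FPKM against 22.1 ± 1.47 in WT (log2 fold change −0.17, 95% interval −0.32 to −0.02, limma adjusted p = 0.564; exact permutation p = 0.0556). Within library sets the difference was −0.08, −0.52 and −0.08, so replicate 3 carried most of it.
Ppara measured 0.109, 0.133, 0.0689, 0.0944 and 0.129 FPKM in WT, and 0.0882, 0.154, 0.0886, 0.115 and 0.0642 in IKO. Ppara gave 0.0758, 0.0725, 0.114, 0.0452 and 0.0875 FPKM in HKO, and 0.129, 0.102, 0.113, 0.0827 and 0.115 in DKO. Ppara had 9 to 34 reads per library, and its genotypes overlapped. Ppard was thus the main PPAR of this list on the FPKM scale, at a mean of 21.2 against 0.0990 for Ppara. Pparg, the third PPAR and not one of the 36, was named after its values were seen. It averaged 17.6 ± 1.24 FPKM in WT and 15.7 ± 0.635 in HKO, with a pooled Hnf4a difference of −0.16 (limma adjusted p = 0.0662).
Ppargc1a measured 0.358, 0.325, 0.297, 0.224 and 0.253 FPKM in WT, and 0.606, 0.712, 0.195, 0.366 and 0.481 in IKO. Ppargc1a gave 0.205, 0.137, 0.183, 0.186 and 0.250 FPKM in HKO, and 0.277, 0.255, 0.383, 0.222 and 0.166 in DKO. The 3 highest values of Ppargc1a were those of IKO replicates 1, 2 and 5, while IKO replicate 3 lay below every WT library. The gene had 25 to 136 reads per library. Its means were 0.291 (WT), 0.472 (IKO), 0.192 (HKO) and 0.261 FPKM (DKO). Fitted without the minimum, its pooled Hnf4a difference was −0.26 on the log2(FPKM + 0.5) scale, which understates changes at such levels. This difference had the smallest p among the 6 low members (limma adjusted p = 0.133), and 0 of these 6 passed in any comparison.

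**Figure D3:**
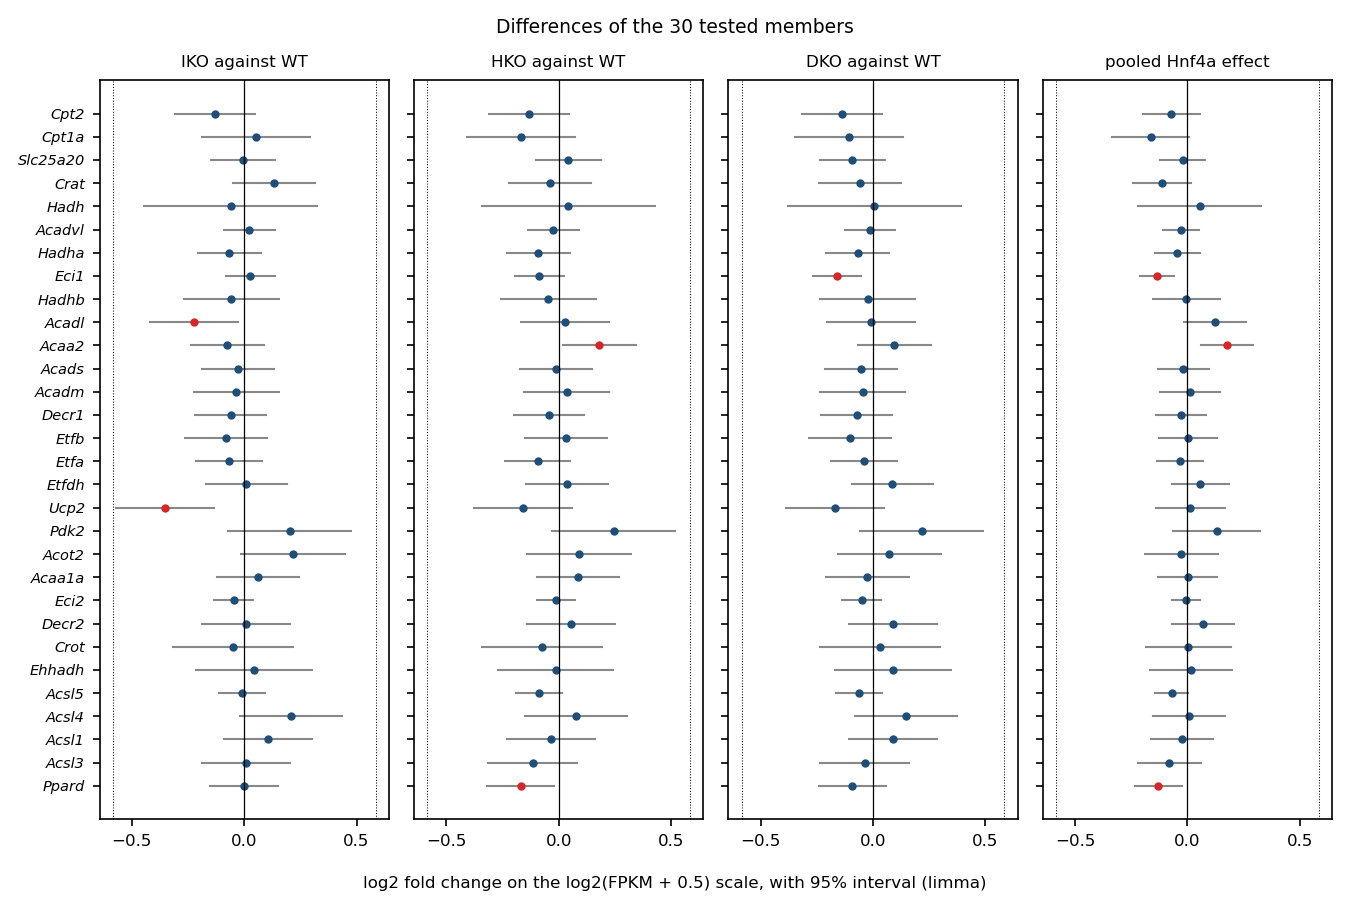
Log2 fold change of the 30 tested members (limma, on the log2(FPKM + 0.5) scale) with 95% intervals for IKO, HKO and DKO against WT and for the pooled Hnf4a difference; red points have an unadjusted p under 0.05 and dotted lines mark 1.5-fold. Every interval shown lies between the dotted lines, and 0 of 30 members passed after adjustment.

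The counts over the members were read against those of all genes. In IKO against WT, 0 of 30 members passed, beside 0.0241% of all genes, and 2 had an unadjusted p under 0.05, beside 4.3% of all genes. For HKO against WT, 0 of 30 passed, beside 0.787%, and 2 had an unadjusted p under 0.05, beside 7.07%. In DKO against WT the count was 0 of 30, beside 1.2%, with 1 at an unadjusted p under 0.05, beside 8.01%. For DKO against HKO it was 0 of 30, beside 0.00803%, and 0 at the unadjusted threshold, beside 3.69%. DKO against IKO had 0 of 30, beside 1.11%, and 4 at the unadjusted threshold, beside 10.2%. The pooled Hnf4a difference had 0 of 30, beside 2.6%, with 3 at the unadjusted threshold, beside 11.6%. For the pooled Foxo1 difference these were 0 of 30, beside 0.0161%, and 1, beside 3.75%, and for the interaction 0 of 30, beside 0.00803%, and 1, beside 4.42%. The members' shares at the unadjusted threshold thus lay near those of all genes. A voom fit on reads recovered from the FPKM values also passed 0 of 30 members in each of the 8 comparisons, with the same numbers at an unadjusted p under 0.05. Comparisons that share WT, IKO or HKO libraries are not independent of each other.

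The intervals say how large a difference could have been missed. In IKO against WT the 30 intervals lay between −0.57 and 0.48 (log2), in HKO against WT between −0.41 and 0.52, and in DKO against WT between −0.39 and 0.49. All 30 were within 1.5-fold in either direction there, beside 91.7%, 91.2% and 90% of all genes. For the pooled Hnf4a difference they lay between −0.33 and 0.33. The exception was the interaction, where 28 of 30 were within 1.5-fold and those of Pdk2 and Ucp2 were not. These intervals take the 5 libraries as separate samples. With close pairs averaged, 28 of 30 stayed within 1.5-fold in IKO against WT (not Pdk2 and Ucp2), 28 in HKO against WT (not Hadh and Pdk2) and 29 in DKO against WT (not Pdk2), and 30 did for the pooled Hnf4a difference. The median difference of the 30 members was −0.01 in IKO, −0.02 in HKO and −0.04 in DKO, each against WT, beside 0.01, 0.00 and 0.02 over all genes. Above 0 were 13, 12 and 10 of 30 (43.3%, 40% and 33.3%), beside 56.9%, 50.2% and 56.4% of all genes. These shares were not tested against each other.

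The library sets were the larger source of spread. Genotypes held a median of 15.8% and library sets a median of 38.7% of the spread of the 30 members on the log2 scale, beside 13.0% and 29.0% over all genes. These shares are not corrected for the number of groups, so random differences between libraries alone give shares above 0. The share of the sets was above that of the genotypes in 21 of 30 members, 70%, beside 65.5% of all genes. In 6 of 30 members, 20%, replicates 1 and 2 of all genotypes did not overlap with replicates 4 and 5, beside 16.7% of all genes. Hadha, Hadhb, Hadh, Pdk2 and Ehhadh were higher in replicates 1 and 2, and Etfb was higher in replicates 4 and 5. Hadh differed most between these sets, by 0.57 (log2). Genotypes held their largest shares in Eci1 (58.5%), Acaa2 (44.2%), Ucp2 (39.3%), Acadl (35.1%) and Ppard (33.1%). What the library sets stand for is not given in the labels.

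**Figure D4:**
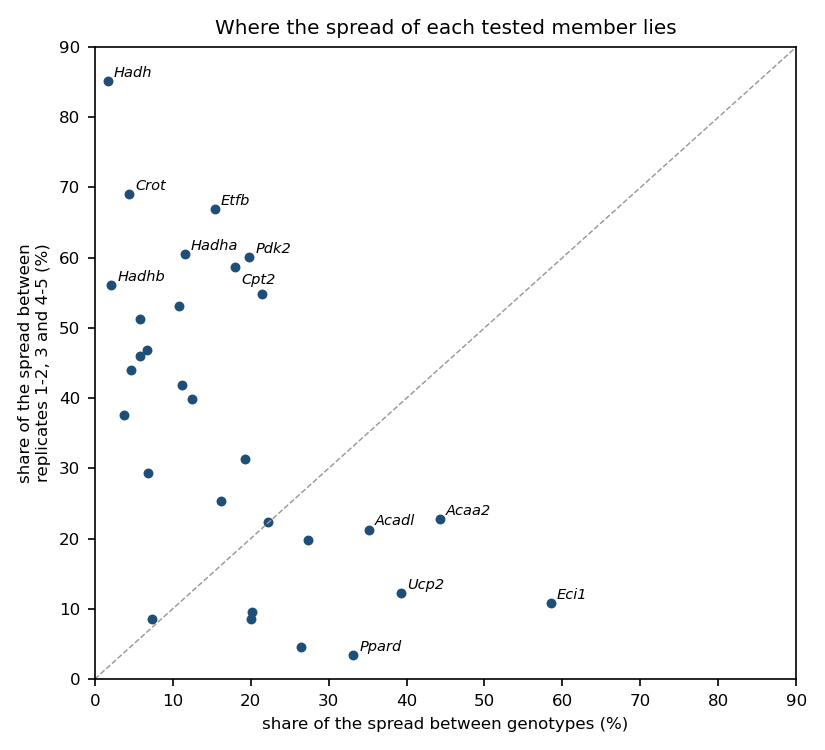
Share of each tested member's spread over the 20 libraries (log2 scale, %) that lies between genotypes (x axis) and between library sets (y axis), 1 point per gene, with the line of equal shares dashed. Hadh lies at the top left (1.67% and 85.2%), Eci1 farthest right (58.5%), and 21 of 30 points lie above the line.

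Other genes of the pathway were described from lists of 84 genes, of which 66 were tested, and 1 passed in any of the 8 comparisons. It passed in HKO against WT, where 0.787% of all genes did, and for the pooled Hnf4a difference, where 2.6% did, so a count of 1 in 66 is near the background. Nudt7, a peroxisomal CoA diphosphatase that stood in the list of other mitochondrial acyl-CoA enzymes, fell in HKO against WT. Nudt7 measured 45.9, 44.96, 41.9, 42.9 and 48.7 FPKM in WT, and 43.3, 44.4, 38.7, 39.8 and 45.2 in IKO. Nudt7 gave 35.7, 33.9, 40.3, 37.5 and 37.3 FPKM in HKO, and 38.3, 43.8, 34.9, 39.6 and 37.9 in DKO. All 5 HKO libraries lay below all 5 WT libraries, DKO overlapped with WT, and IKO overlapped with both. HKO averaged 36.9 ± 2.39 FPKM against 44.9 ± 2.66 in WT (a log2 difference of −0.28 with an SE of 0.06, limma adjusted p = 0.0454), and the pooled Hnf4a difference was −0.20 (adjusted p = 0.0185). With close pairs averaged, and no term for library sets, these adjusted p-values were 0.999995 and 0.564. Without the 3 libraries highest in acinar markers they were 0.0827 and 0.0556. The call in HKO against WT was lost when any 1 of 13 of the 20 libraries was left out (adjusted p = 0.0534 to 0.152) and held only without WT replicate 3, IKO replicates 3, 4 or 5, HKO replicate 3, or DKO replicates 2 or 3.
In that list of 22 tested genes the other 21 did not pass, and the median pooled Hnf4a difference was 0.00. Of 14 tested genes of peroxisomal oxidation 0 passed, with a median of 0.04. Of 15 PPAR partners 0 passed, with a median of 0.02, and of 3 ketone body genes 0 passed, with a median of −0.02.
Of 25 PPAR target genes, 12 were tested and 0 passed, with a median pooled Hnf4a difference of −0.11 and 2 of 12 above 0. Over all genes tested the median was 0.00, 51% were above 0 and 2.6% passed. For that difference 4 of the 12 had an unadjusted limma p under 0.05, beside 11.6% of all genes. In DKO against IKO 4 did, beside 10.2%, and in each other comparison 0 or 1 did. The intervals of the pooled Hnf4a difference lay within 1.5-fold for 8 of 12, beside 95% of all genes. Angptl4, Plin4, Plin5, Fabp1, Cyp4a10 and Cyp4a14, targets known from liver, muscle and fat, lay under the minimum mean of 0.5 FPKM and are named after their values were seen.

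Short binding motifs were looked for in the 250 bases before the start of the members, on both strands. RefSeq promoter entries (GRCm38.p6) were found for 33 of 36 members, all but Decr1, Crat and Acaa2. A direct repeat of AGGNCA with any 1 base between the copies, of the kind that HNF4 and PPAR proteins bind, was found in 0 of 33 members and in 0.4% of 27025 genes. The stricter repeat of AGGTCA, which the first includes, was in 0 of 33 and in 0.0407% of genes. CAAAGTCCA, an HNF4 motif, was in 0 of 33 and in 0.451% of genes, and GTAAACA, a forkhead motif, in 0 of 33 and in 3.54%. No match says only that these letters are not in this window.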

How the data were processed

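The authors deposited FPKM values of the 20 libraries in 1 table, which holds 0 other sample columns. Libraries were directional and poly-A selected with 42-base paired reads, per the labels' protocols. Per the submitters' processing notes, the build was mm10 and the tools included DESeq2 1.14.1, featureCounts, STAR 2.5.2b and Subread 1.5.2, with no roles named. In the sources used here, neither the annotation nor the use of strand in counting is given. Of 27179 entries, 847 named NA and 27 named as dates were left out.

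Reads were recovered from the steps of the deposited FPKM values (21006 of 21006 entries above 0 whole within 0.02 reads) and served for depth, replicate checks and a voom alternative.

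With limma 3.58.1 in R 4.3.3, log2(FPKM + 0.5) was fitted for genes averaging 0.5 FPKM or more (trended eBayes, 1 estimate of the spread over the 20 libraries), with Benjamini-Hochberg adjustment over 12455 genes. The members and lists were chosen with earlier results of these data known. Values per library are given for members that pass, for the 2 smallest p-values of each comparison where none passes, and for 14 central genes; of the other lists, genes that pass are named. The fit was tested on simulated data with independent noise in each library, so that test does not cover close pairs or library sets. Alternatives were other scalings, pseudocounts of 0.1 and 1, other filters, a replicate block, library sets as a covariate, close pairs averaged or correlated (consensus correlation 0.81), each library left out, and the 3 libraries highest in acinar markers left out.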

Additional observations from a re-analysis of the deposited data

Results flagged for a closer look

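In 8 of 144 groups of 5 libraries, 5.56%, 1 library stood apart from the other 4 by Dixon's criterion, and chance alone gives about 1 in 20. Acadm was high in IKO replicate 3 at 10.35 FPKM, and Acads was high in IKO replicate 4 at 10.57. Decr1 was high in WT replicate 5 at 7.63 FPKM and low in DKO replicate 4 at 5.088. Etfa was high in DKO replicate 2 at 33.17 FPKM, and Etfdh was low in IKO replicate 4 at 17.24. In DKO replicate 3, Ucp2 was high at 71.02 FPKM and Acaa1a low at 48.54. Replicate 3 gave 3 of the 8 values.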

How the results depend on the processing

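In 6 of the 8 comparisons, 0 of 30 members passed under every alternative run. The exceptions concerned Eci1 and Acaa2. In DKO against IKO, 1 member (Eci1, adjusted p = 0.0287) passed with library sets as a covariate. For the pooled Hnf4a difference, 1 member passed after scaling to equal medians (Acaa2, 0.0301), after quantile normalization (Acaa2, 0.0281), with a pseudocount of 0.1 (Eci1, 0.0498), without the filter on low values (Eci1, 0.0390) and without the 3 libraries highest in acinar markers (Acaa2, 0.0333). With library sets as a covariate 2 passed (Eci1, 0.0165, and Acaa2, 0.0268). Leaving out 1 library gave 0 to 1 (Eci1 without WT replicate 1, IKO replicate 1, IKO replicate 2 or DKO replicate 3, 0.0331 to 0.0474). The covariate fit counts close pairs as separate samples. With close pairs averaged, and no term for library sets, the adjusted p was 0.712 for Eci1 and 0.758 for Acaa2. With close pairs correlated, also without that term, it was 0.580 and 0.631. The causes were not tested. All 587 fits of 18 named pairs of gene and comparison kept their sign, but the pairs were picked for a small p in these data. Many of these fits could not move the difference, such as other filters, a replicate block, library sets as a covariate, or leaving out a library of a genotype not compared. Etfb in DKO against HKO went from −0.13 to −0.0021 without the 3 libraries highest in acinar markers. Nudt7 passed in 13 of 33 alternatives in HKO against WT and in 29 of 32 for the pooled Hnf4a difference.

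With the replicate number as a block, 2 members passed for the pooled Hnf4a difference (Eci1, 0.0311, and Acaa2, 0.0427), and 0 in the other 7 comparisons. Same-numbered deviations correlated at 0.0810 to 0.480 for replicate 1, 0.108 to 0.350 for replicate 2, −0.39 to 0.25 for replicate 3, 0.370 to 0.499 for replicate 4 and 0.285 to 0.454 for replicate 5. The medians were 0.331, 0.292, 0.0131, 0.402 and 0.334 for replicates 1 to 5. As not every pair was above 0.1, the numbers were not taken to pair the samples. The main fit therefore keeps any spread shared by same-numbered libraries in its error. Over all genes, 98 passed in HKO against WT (block 193, library sets 277, close pairs averaged 5, correlated 26), 150 in DKO against WT (263, 363, 17 and 42), 138 in DKO against IKO (291, 434, 15 and 26) and 324 for the pooled Hnf4a difference (515, 630, 46 and 94). For 1 member, 5 to 80 reads of Pdk4 or 0 to 8 of Acot1 per library limit what can be seen.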
